A study of Bos taurus with 20 samples.

Results

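PENK, GRP, ADM and STC1 encode precursors of secreted peptide or glycoprotein hormones, and their transcripts were measured in bovine endometrium on day 18 after oestrus. The members are all clones that the gene table of the 18KB and 18KO arrays assigns to these 4 symbols, 13 clones of the 3072 on both arrays and 4 of the 148 genes with a name there. PENK has 4 clones on the 18KB and 2 on the 18KO array, GRP has 5 on the 18KO array, and ADM (18KB) and STC1 (18KO) have 1 clone each. The tissue came from Simmental heifers whose cycles had been synchronised with the prostaglandin analogue cloprostenol. The 4 pregnant heifers (17 to 20 months old) had been inseminated with semen and carried a conceptus, which was removed from the uterus before sampling. The 6 control heifers (18 to 22 months old) had received the supernatant of centrifuged semen of the same bull, held no conceptus and were on day 18 of the cycle. Pieces of intercaruncular endometrium were cut from the lamina propria of the caudal ipsilateral horn and used as whole tissue, so fewer cells of a type and less RNA per cell cannot be told apart in any value below.

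Peptide hormones of this kind are made as longer precursors, which are directed into the secretory pathway and, for enkephalins, gastrin-releasing peptide and adrenomedullin, cut into the active peptides by proteases; stanniocalcin-1 is a glycoprotein that is secreted whole. PENK yields the enkephalins, opioid peptides that act on delta and mu receptors, and Penk is also transcribed in the uterus of rodents. GRP yields gastrin-releasing peptide, a ligand of a bombesin receptor, and in sheep it is a product of the uterine glands in pregnancy. ADM yields adrenomedullin, a vasodilator whose receptor consists of CALCRL and a RAMP protein, and maternal adrenomedullin is needed for normal implantation in mice. STC1 encodes stanniocalcin-1, first known as a calcium-regulating hormone of fish and made by the uterine glands of pregnant ewes.

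The RNA of every animal was hybridised to both arrays with a radioactive label, and the 10 animals gave 20 columns of spot intensities. The 18KB array carries a cDNA library enriched for transcripts of pregnant endometrium and the 18KO array one enriched for transcripts of control endometrium. Column medians were 1.39 to 3.18 for the 18KB array, while those of the 18KO array were 1.67 to 3.90. The median log2 fold change of all features, pregnant minus control, was 0.38 on the 18KB and -0.02 on the 18KO array. A feature is a named gene, with its clones averaged on the log2 scale, or a clone without a single gene name, and a call needed a 2-fold difference with a Benjamini-Hochberg adjusted p below 0.01. The 18KO array of pregnant 316 was hybridised again later with a pair of other samples and placed on the scale of the rest by its ratios to them, per the labels. The authors sequenced chiefly clones that differed between these same animals, so that a clone's having a name is itself tied to its difference.

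PENK was the member with the large change. On the 18KB array its 4 clones averaged (geometric mean intensity) 29.5, 46.7, 73.5 and 38.8 in pregnant 316, 426, 447 and 448, against 0.81, 1.01, 2.48, 6.72, 9.08 and 9.33 in controls 440, 427, 449, 404, 330 and 434. Every pregnant animal lay above every control, and the lowest pregnant animal was 3.16 times the highest control. The log2 fold change was 3.78 ± 0.71 (SE, 4 pregnant and 6 control animals; 95% interval 2.23 to 5.33), or 13.7-fold higher in pregnant animals, with a limma adjusted p of 0.00189. On this array 15.6% of all 1420 features were called higher and 22.3% had every pregnant animal above every control. Of its 86 named genes 88.4% were called in either direction, so a call on the 18KB array was common among sequenced clones.

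The 18KO array, with other clones of the same gene, also gave a rise of PENK. Its 2 clones averaged 44.5, 47.6, 59.9 and 29.9 in pregnant 316, 426, 447 and 448, against 1.89, 2.04, 6.09, 7.42, 8.02 and 8.64 in controls 440, 427, 449, 404, 330 and 434. Again no pregnant animal overlapped the controls, as in 4.28% of the 1471 features of this array. The log2 fold change was 3.20 ± 0.46 (SE; 95% interval 2.22 to 4.19; limma adjusted p = 0.000531), or 9.21-fold. Here 0.884% of all features were called higher in pregnant animals, and 33.3% of the 72 named genes were called in either direction. The library of this array had been enriched for control transcripts, and PENK clones of it were higher in the pregnant animals.

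**Figure D1:**
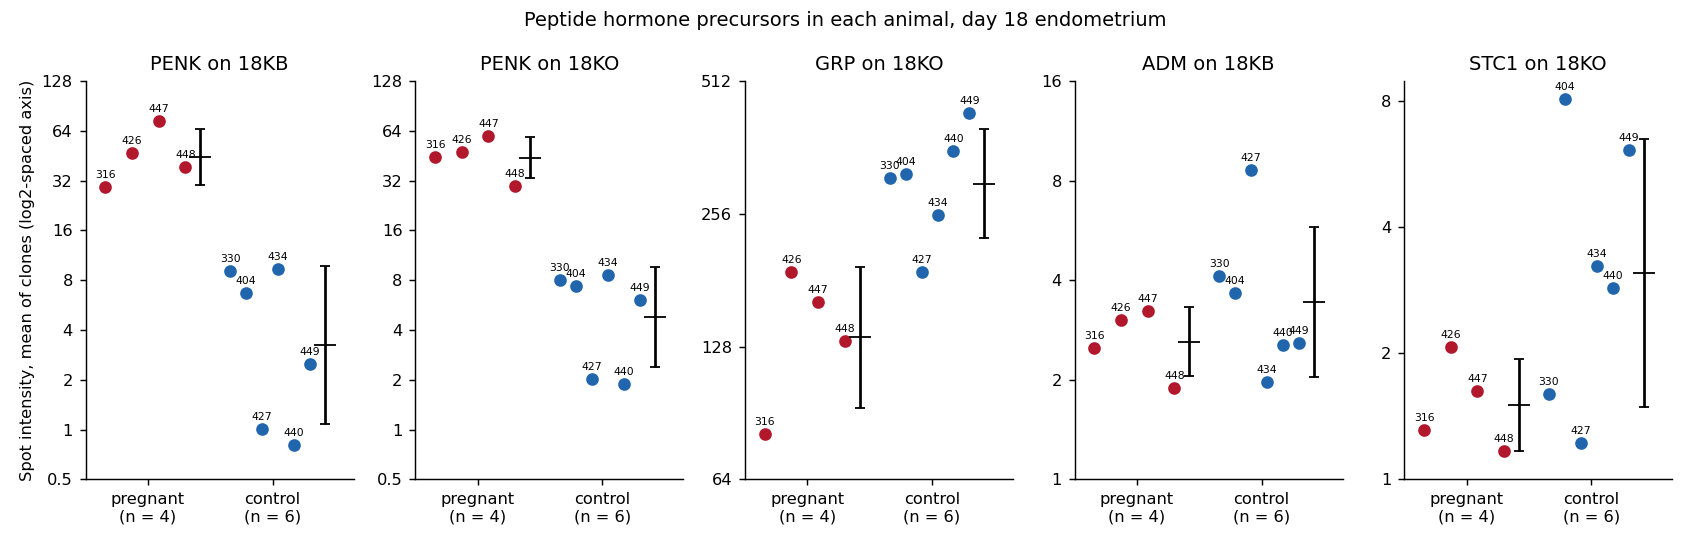
Spot intensity (log2-spaced axis) of each gene in each animal, as the geometric mean of its clones, with 4 pregnant animals on the left and 6 controls on the right of each panel; numbers name the animals, and the black mark and bar give the mean and SD on the log2 scale. PENK separates the groups on both arrays, while GRP, ADM and STC1 overlap.

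The level of PENK covered a narrower range in pregnant animals than in controls, a difference in spread that was not tested. On the 18KB array the pregnant animals covered a 2.50-fold range (SD 0.55 on the log2 scale, n = 4) and the controls an 11.5-fold range (SD 1.59, n = 6). On the 18KO array the range was 2.00-fold in pregnant animals and 4.56-fold in controls. The 6 controls had the same order on both arrays, with 434 highest, then 330, 404, 449, 427 and 440. Both arrays shared the RNA of each animal, so this order repeats the hybridisation and not the animals. Controls 427 and 440, the lowest, were 22 months old and the oldest of all animals. With age in months as a covariate the log2 fold change of PENK was 3.22 on the 18KB array (limma adjusted p = 0.00487, called). On the 18KO array it was 2.74 (adjusted p = 0.000661, called). The cause of the lower values in these controls was not tested. Among pregnant animals 447 was highest on both arrays and 426 next, while 316 was lowest on the 18KB and 448 on the 18KO array.

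Averaged over both arrays, PENK had a log2 level of 5.47 ± 0.44 in pregnant animals (SD, n = 4) and 1.98 ± 1.29 in controls (SD, n = 6). The difference of 3.49 (11.3-fold) gave p = 0.00476 in an exact permutation test (two-sided). That is the least possible with the 210 divisions of 10 animals. No pregnant animal overlapped the controls on either array and naming was tied to a difference, so this p gives no separate support. The change was 0.58 larger on the 18KB than on the 18KO array on the log2 scale, a difference that was not called. The limma interaction over the 10 genes named on both arrays gave SE 0.91, unadjusted p = 0.53 and adjusted p = 0.999. That fit took the 2 arrays of an animal as independent. With the animal as a block limma gave SE 0.31, unadjusted p = 0.0701 and adjusted p = 0.35. An exact two-sided permutation test of the difference between the arrays per animal gave p = 0.186. The difference turned negative when column medians were set equal (-0.58) and after quantile normalization (-0.18), and was called under neither.

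All 6 clones of PENK were called higher, with log2 fold changes from 2.23 ± 0.26 for clone 18KO-08-C01 to 4.45 ± 0.99 for clone 18KB-05-A10 (SE). Clones called higher made up 20.5% of the 1536 clones of the 18KB and 1.17% of those of the 18KO array. The clones followed each other over the 10 animals, with pairwise Pearson correlations of 0.894 to 0.995, or 0.663 to 0.995 for deviations from the group means. These correlations describe 15 pairs of clones that share the animals' RNA.

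The range over pregnant animals was 1.92-fold to 3.06-fold in the 6 clones, and that over controls 1.72-fold to 32.3-fold. Clone 18KO-08-C01 ran from 84.4 to 162 in pregnant animals and from 20.0 to 34.2 in controls, a 1.72-fold range over controls. Clone 18KO-18-A04 ran from 10.6 to 22.1 in pregnant animals and from 0.18 to 2.23 in controls, a 12.4-fold range, and in controls 427 and 440 this spot was below 0.37, the 10th percentile of intensities on the array. Clone 18KB-05-A10 ran from 38.1 to 79.3 in pregnant animals and from 0.32 to 10.3 in controls, a 32.3-fold range. Its value in control 440 (0.32) lay at the 10th percentile of the 18KB array, also 0.32, and that in control 427 was 0.46. The fold of PENK depended on which clone was read, from 4.68-fold to 21.8-fold, and the clone with the highest mean intensity on each array alone gave a log2 fold change of 3.39 (18KB) and 2.23 (18KO).

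**Figure D2:**
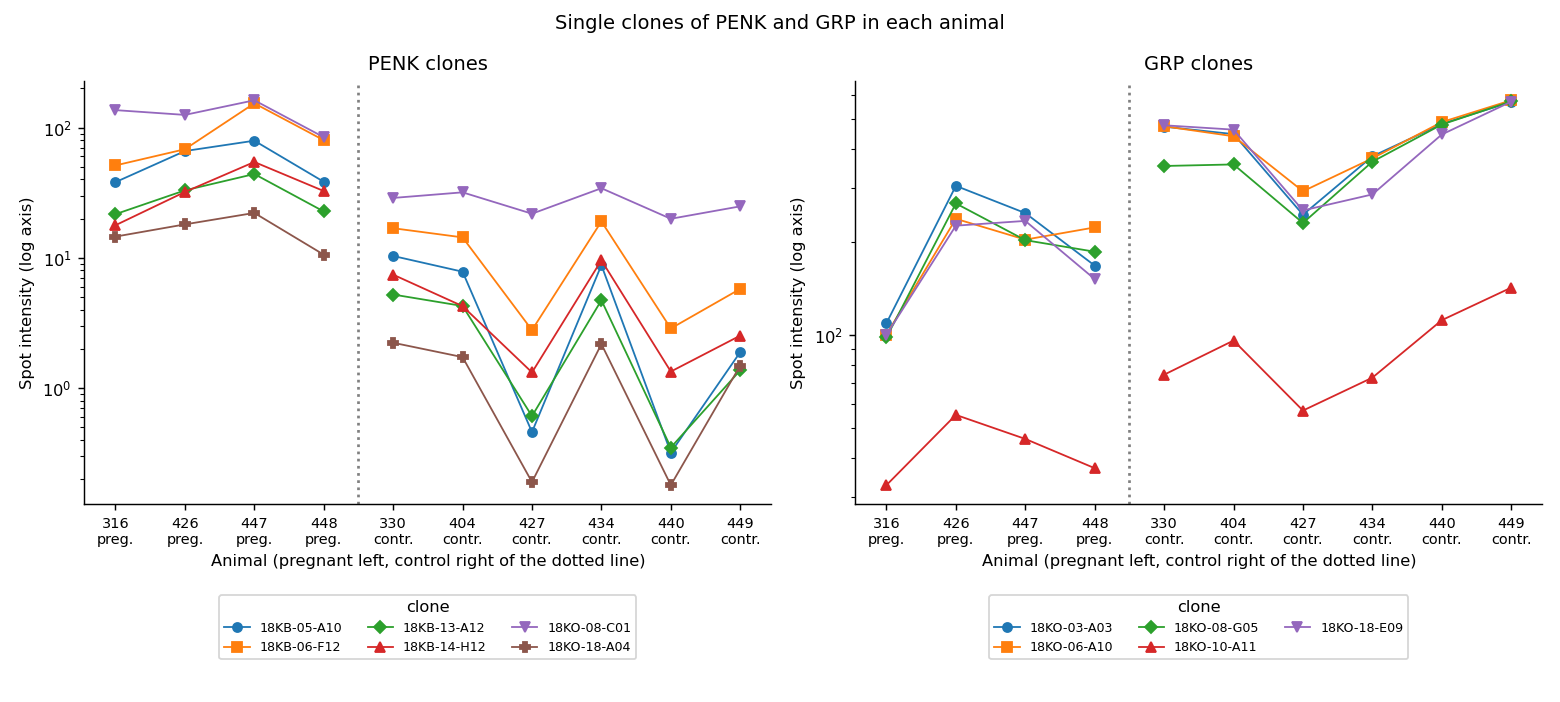
Spot intensity (log axis) of each of the 6 PENK clones (left) and 5 GRP clones (right) in each animal, with pregnant animals left of the dotted line. Controls 427 and 440 are the lowest animals in each PENK clone, and in each GRP clone pregnant 316 is the lowest and control 449 the highest.

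GRP was lower in pregnant than in control endometrium but did not pass the call. Its 5 clones averaged 81.2, 189, 162 and 132 in pregnant 316, 426, 447 and 448, against 189, 255, 309, 316, 356 and 433 in controls 427, 434, 330, 404, 440 and 449. Of the pregnant animals 3 lay below every control, and 426 just reached the level of control 427 (189.1 and 188.7). The log2 fold change was -1.16 ± 0.30 (SE; 95% interval -1.80 to -0.51), 2.23-fold lower, with a limma adjusted p of 0.0242 over all 1471 features. Adjusted over the 72 named genes alone the p was 0.00899 and GRP was called. These genes were named chiefly because their clones differed between the same animals, so that call gives no separate support. On this array 3.87% of features were called lower in pregnant animals.

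The lowest value of GRP was that of pregnant 316, whose array was hybridised later. Without that animal the log2 fold change was -0.91 (limma adjusted p = 0.0825). With age in months as a covariate it was -1.37 (adjusted p = 0.00782, called), with 1 scaling factor per animal -1.41 (adjusted p = 0.0027, called), and with equal column medians -0.83 (adjusted p = 0.0367).

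The 5 GRP clones were close to each other in size. Their log2 fold changes ran from -1.08 to -1.25, with limma adjusted p from 0.0118 to 0.0337, and 0 of the 5 were called. The unadjusted limma p ran from 0.000959 to 0.0048. These are clones of 1 gene read in the same RNA, so they repeat the measurement and not the animals. Clones called lower made up 6.32% of the array. In 3 of the 5 clones every pregnant animal lay below every control, as in 12.2% of all clones of the array. Pairwise correlations of the clones over the 10 animals were 0.92 to 0.98.

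In controls 4 of the GRP clones came near the top of the scale. For clones 18KO-03-A03, 18KO-06-A10, 18KO-08-G05 and 18KO-18-E09 the intensity reached 90% of the brightest spot of the same column in 3, 3, 2 and 3 columns, all of controls, with a highest share of 98.4%. In pregnant animals these 4 clones reached at most 53.6%. Clone 18KO-10-A11, which reached at most 24.2% of the brightest spot of a column and ran from 32.7 to 55.2 in pregnant animals and from 57.0 to 143 in controls, gave a log2 fold change of -1.08 ± 0.29 (SE), against -1.09 to -1.25 for the other 4. The part of the upper end of the scale in these differences was not tested.

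**Figure D3:**
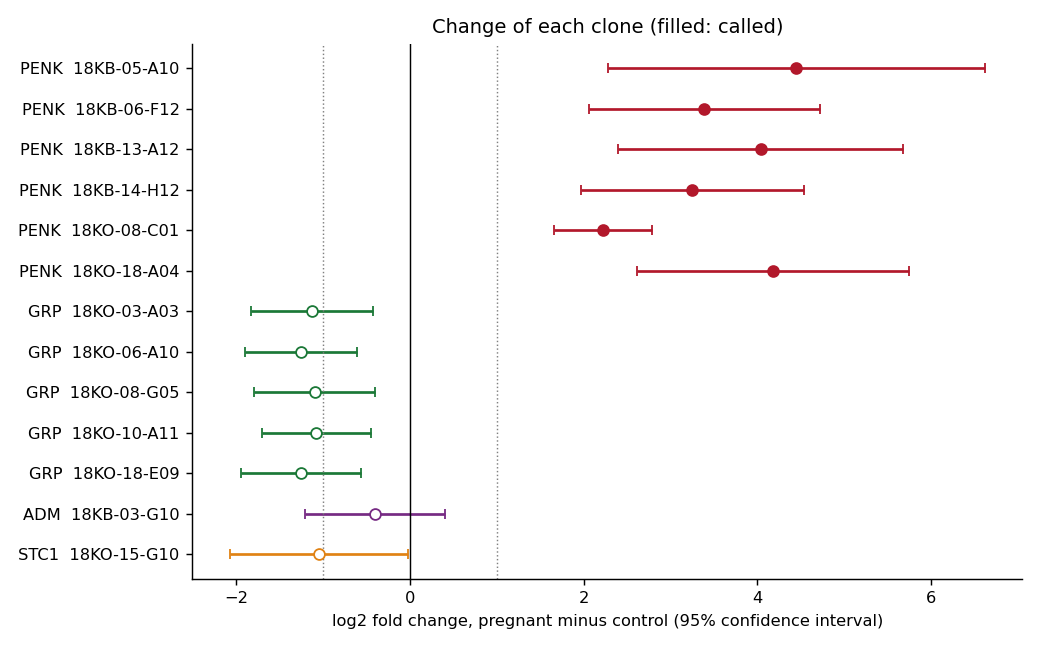
Log2 fold change, pregnant minus control, of each of the 13 clones, with its 95% confidence interval from limma over 4 pregnant and 6 control animals; filled points were called, and dotted lines mark a 2-fold change. The 6 PENK clones lie between 2.23 and 4.45, the 5 GRP clones between -1.08 and -1.25.

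ADM had intensities of 2.50, 3.04, 3.23 and 1.89 in pregnant 316, 426, 447 and 448, against 1.97, 2.54, 2.58, 3.67, 4.12 and 8.59 in controls 434, 440, 449, 404, 330 and 427. The groups overlapped, and control 427 was the highest animal. The log2 fold change was -0.40 ± 0.36 (SE; 95% interval -1.19 to 0.39; limma adjusted p = 0.425), while 0.634% of the features of the 18KB array were called lower. The interval of the ratio runs from 0.44 to 1.31 times the control level.

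The result for ADM depended on the scaling of the columns. The median feature of the 18KB array stood at 0.38, and when the column medians were set equal ADM had a log2 fold change of -1.23 (limma adjusted p = 0.00543) and was called lower. Quantile normalization likewise gave -1.22 (adjusted p = 0.00733), and 1 factor per animal from both arrays gave -0.65 (adjusted p = 0.232, not called). With values as deposited, leaving out control 427 moved it to -0.14.

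STC1 had intensities of 1.31, 2.07, 1.63 and 1.17 in pregnant 316, 426, 447 and 448, against 1.22, 1.60, 2.86, 3.24, 6.13 and 8.12 in controls 427, 330, 440, 434, 449 and 404. The pregnant animals lay together at the low end, and controls 427 and 330 lay among them. The 1 clone was dim in pregnant animals, at 1.17 to 2.07, where column medians of the array were 1.67 to 3.90. Controls covered a 6.66-fold range and pregnant animals a 1.77-fold range. The log2 fold change was -1.04 ± 0.47 (SE; 95% interval -2.05 to -0.03), with an unadjusted p of 0.0442 and a limma adjusted p of 0.163, so STC1 was not called. Without control 404 it was -0.77, and without control 427 -1.31.

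**Figure D4:**
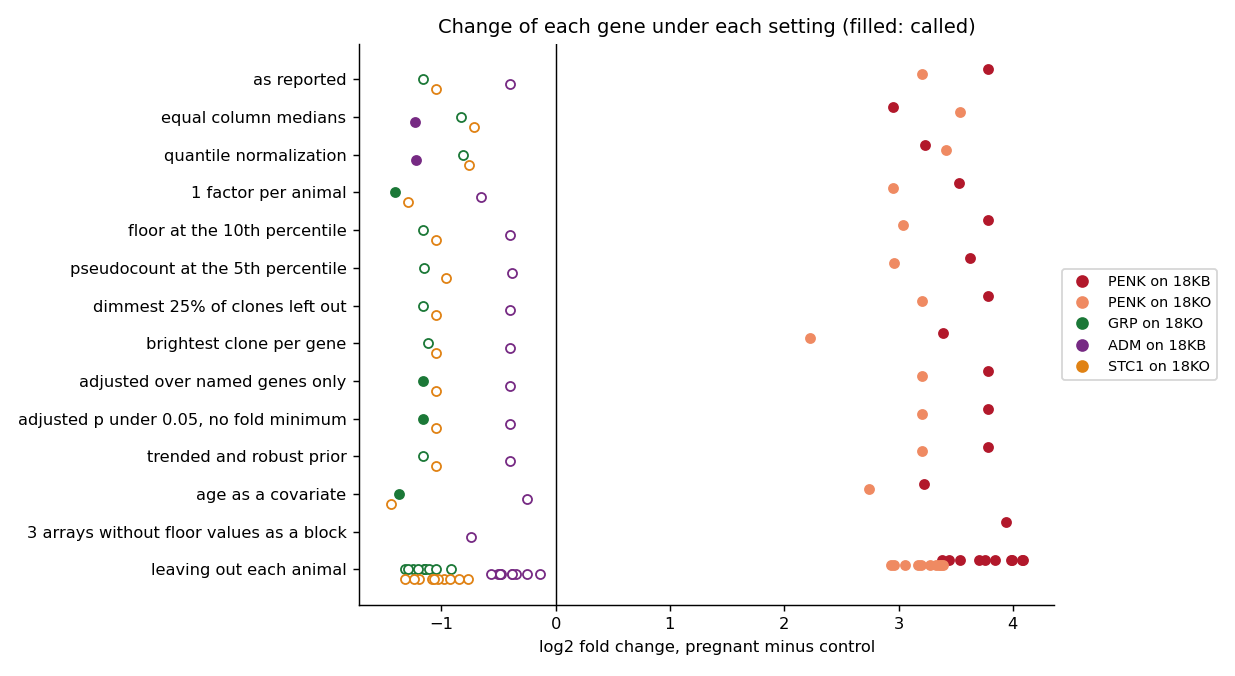
Log2 fold change, pregnant minus control, of each gene under each setting, filled where called. PENK is called on both arrays under every setting shown, ADM under equal column medians and quantile normalization, GRP under 4 settings and STC1 under none.

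Few other genes of these peptide systems carry a name on the arrays. Of the 9 genes listed for opioid peptides and receptors PENK is the single one named, likewise GRP among 5 for bombesin peptides and receptors and ADM among 11 for the adrenomedullin and calcitonin family. None (0) of the 13 genes listed for precursor processing, such as PCSK1 and CPE, has a name. Beside STC1, S100G, an intracellular calcium-binding protein, was named among 8 genes of stanniocalcins and calcium handling. Its log2 fold change was -1.40 ± 0.38 (SE, limma adjusted p = 0.0259), not called as deposited, but called with 1 factor per animal (-1.65) and after quantile normalization (-1.16).

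Among 33 further peptide hormone precursors TAC3, which yields neurokinin B, was named, with 1 clone on the 18KO array. Its intensities were 1.19, 0.59, 0.56 and 0.35 in pregnant 316, 426, 447 and 448, against 0.60, 0.79, 1.15, 1.17, 2.75 and 5.49 in controls 330, 434, 404, 440, 427 and 449. The groups overlapped and the values lay in the lower part of the scale, with pregnant 448 under the 10th percentile. The log2 fold change was -1.26 ± 0.55 (SE, limma adjusted p = 0.153).

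Genes of related systems stood as follows. Of 4 genes from the list of uterine secretory proteins on the 18KO array 0 were called by limma as deposited (median -1.21). They did not share a direction. The list also holds genes whose proteins are not secreted, such as FABP3. The unadjusted limma p of the 4 genes ran from 0.000862 (RBP4) to 0.144 (SERPINA14). With 1 factor per animal RBP4 and ANXA2 were called lower, but so were 161 features of the array, against 57 as deposited. The retinol carrier RBP4 (-1.26, limma adjusted p = 0.0145), ANXA2 (-1.16, adjusted p = 0.0253) and SERPINA14, a uterine serpin (-1.37, adjusted p = 0.337), had values below 0, and CRYGS had a value above 0 (1.43, adjusted p = 0.0885). The 3 genes of this list on the 18KB array, FABP3, PLET1 and MEP1B, were called higher (median 4.03). On that array 15.6% of features were called higher and 88.4% of named genes were called in either direction. Of the steroid, oxytocin and prostaglandin genes OXTR fell (-3.65) and PTGS2 had a value of -0.47. Of the cyclic AMP and immediate early genes, GADD45G (-3.24) and PLK2 (-2.67) fell and DUSP5 was not called (-1.83), except with 1 factor per animal (-2.08). Of the hypoxia-related genes TXNIP rose on the 18KB array (1.44), but was not called there with equal column medians (0.61) or after quantile normalization (0.88). As deposited, TXNIP (1.53) and EPAS1 (1.45) on the 18KO array and LDHA (-0.99) on the 18KB array were not called. These 3 were called with equal column medians (TXNIP 1.86, EPAS1 1.78, LDHA -1.82) and after quantile normalization (1.64, 1.71 and -1.80 in the same order).

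Some marker genes of cell types differed between the groups. Of 9 epithelial markers 1, CLDN4, has a name. It had an intensity of 26.5, 18.9, 32.6 and 27.4 in pregnant 316, 426, 447 and 448. In controls 427, 440, 330, 449, 404 and 434 it had 1.75, 2.62, 6.53, 11.9, 12.3 and 19.7. The log2 fold change was 1.96 (limma adjusted p = 0.0393, not called). It was called with equal column medians (2.29, adjusted p = 0.00496), but not after quantile normalization (2.09, adjusted p = 0.012) or with 1 factor per animal (1.71, adjusted p = 0.0373). Controls 427 and 440, the lowest in PENK, were also the lowest in CLDN4, and control 434, the highest in PENK, was the highest. Control 330, next to 434 in PENK, lay below controls 449 and 404 in CLDN4. The relation of CLDN4 to PENK was not tested. Of the 10 stroma markers 3 were named on the 18KB array and 3 fell, with summed intensities of 107 to 436 in pregnant animals and 622 to 1415 in controls. Of 6 on the 18KO array 3 fell, 1 rose (NR2F2) and 2 were not called (COL1A2 -1.73, called after quantile normalization and with 1 factor per animal, and FBLN1 -1.06), with sums of 69.5 to 275 in pregnant animals and 328 to 1086 in controls. Both smooth muscle markers with a name, ACTA2 and MYLK, fell (sums 4.81 to 9.33 in pregnant animals and 14.7 to 33.3 in controls). On the 18KB array 0.634% of all features were called lower and 88.4% of named genes were called in either direction. For the 18KO array, which holds the smooth muscle markers, these shares were 3.87% and 33.3%. Naming was tied to a difference, so these counts are partly set by that choice.

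Of 11 trophoblast markers 3 were named on the 18KB array; TKDP1 (3.14) and IFNT2 (2.16) were called higher as deposited, but under none of the 3 other scalings, and TKDP4 was not called (2.31). Their sum ran from 1.44 to 41.7 in pregnant animals and from 0.96 to 1.79 in controls. TKDP1 was 0.34, 2.85, 1.43 and 16.1 in pregnant 316, 426, 447 and 448. PENK on the same array was 29.5, 46.7, 73.5 and 38.8 in the same order. The relation of TKDP1 to PENK over these animals was not tested. No immune or endothelial marker of the lists (0 of 8 and 0 of 5) has a name on either array. The part of the cell composition in the values of PENK, GRP, ADM and STC1 was not tested.

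The named genes whose course over the 10 animals was most like that of a member differed between members. For PENK on the 18KB array these were ACSS1, a mitochondrial acetyl-CoA synthetase (Pearson r = 0.97), MEP1B, a subunit of the metalloprotease meprin (0.97), and ABTB1 (0.95), out of 85 genes. For deviations from the group means the same genes had r of 0.90, 0.91 and 0.82. All 3 genes were called higher, on an array where 88.4% of the 86 named genes were called in either direction. The genes were picked for following PENK, which separates the groups, so these calls are partly set by that choice. On the 18KO array they were SERPING1, the C1 inhibitor (0.95), TXNIP, which binds and inhibits thioredoxin (0.91), and EPAS1, a transcription factor stabilised in low oxygen (0.90), out of 71, with r of 0.70, 0.81 and 0.73 for the deviations. Of these SERPING1 was called higher, and TXNIP and EPAS1 were not called, where 33.3% of the 72 named genes were called in either direction. Lowest were the collagen gene COL1A1 (-0.85, deviations -0.54) on the 18KB array and OXTR, the oxytocin receptor (-0.87, deviations -0.03), on the 18KO array. PENK and OXTR thus ran opposite between the groups, with a correlation near 0 for the deviations within them. In pregnant animals OXTR had a mean log2 level of -3.13, under the 10th percentile of the array (an intensity of 0.37). Its deviations there are those of dim spots, so this correlation says little about the course within the groups.

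GRP had the most similar course in TUBB6, a beta tubulin (0.93, deviations 0.78), A4GALT, a glycosyltransferase (0.90, deviations 0.68), and SEC61A1, a subunit of the translocon (0.88, deviations 0.61). The gene with the lowest value was SERPING1 (-0.77, deviations 0.09). For ADM these genes were NDP, which encodes norrin, a ligand of a Wnt receptor (0.82, deviations 0.80), COL1A2 (0.67, deviations 0.71) and LDHA, a lactate dehydrogenase subunit (0.66, deviations 0.65), and the lowest was CNDP2, a dipeptidase (-0.46, deviations -0.35). For STC1 they were the ubiquitin ligase RNF144B (0.89, deviations 0.84), the phosphatase DUSP5 (0.87, deviations 0.82) and BTG2, an inhibitor of proliferation (0.87, deviations 0.93), and the lowest was SERPING1 (-0.51, deviations 0.11). In pregnant animals DUSP5 had a mean log2 level of -2.60, under the 10th percentile of the 18KO array (an intensity of 0.37). Its deviations there are those of a dim spot. All genes of an array share its 10 columns and their scaling, and these values over 10 animals in 2 groups are a description.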

How the data were processed

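The authors deposited linear spot intensities of cDNA arrays hybridised with 33P-labelled cDNA, per the labels; background correction and scaling of these values are not given in the sources used here. Values under 0.01 were set to 0.01 before taking log2, with no further scaling. Depth does not apply to arrays; the number of animals limits the precision. Clones were named through the gene table of the platform (possibly outdated); a symbol repeated for 1 clone counted once, as for GRP, which is listed with a pair of gene identifiers. RefSeq (assembly ARS-UCD2.0) holds 4 of the members' 5 gene identifiers, with matching symbols. Other columns of per-sample values numbered 0, and no column repeated another.

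Pregnant and control animals were compared per array over all features, and separately over all clones, with lmFit and eBayes of limma 3.58.1 in R 4.3.3, a method checked on simulated data, with Benjamini-Hochberg adjustment over the whole array. The thresholds are those the series design gives for SAM (2-fold, 1%). Single values per animal were compared by exact permutation. The animal numbers in the labels pair the 2 arrays of an animal; deviations from the group means over the 10 shared genes had a correlation of -0.08 in pregnant 316 and 0.35 to 0.93 in the other 9. Figures were drawn with matplotlib 3.10.9.

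The members and gene lists were chosen with earlier results of these data known. Named are the members, genes of the lists, and per member and array the 3 named genes with the highest and the 1 with the lowest Pearson correlation. The alternatives were other column scalings, floors, a filter on dim clones, the brightest clone, other adjustments and thresholds, a trended and robust prior, age, a block and leaving out each animal.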

Additional observations from a re-analysis of the deposited data

How the results depend on the processing

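PENK was called higher on both arrays in all alternatives run, with log2 fold changes of 2.95 to 3.94 for the 18KB array (3.38 to 4.09 without 1 animal at a time) and 2.23 to 3.53 for the 18KO array (2.94 to 3.39 without 1 animal). With the 3 arrays of the 18KB set that hold no value at or below 0.01 (pregnant 426 and 447, control 427) as a block PENK had 3.94, and within these 3 arrays it differed by 5.86, within the other 7 by 3.05. ADM had -0.74 with this block, added for ADM after seeing the data, and within the same sets -1.45 and -0.40. The mean of both arrays differed by 2.81 to 3.41 under the alternatives and by 3.16 to 3.73 without 1 animal. The animal as a replicate block left the difference of PENK between arrays at 0.58 (SE 0.31, limma adjusted p = 0.35), and it was called under no alternative; it was -0.58 with equal column medians and -0.18 after quantile normalization, 1.16 with the brightest clone alone, and 0.43 to 0.78 without 1 animal.

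GRP lay between -0.81 and -1.41 in all alternatives and was called with 1 factor per animal (-1.41) and with age as a covariate (-1.37). It was also called when adjusted over named genes only, a set tied to the difference itself, or at an adjusted p under 0.05 with no fold minimum (-1.16 in both). ADM was called with equal column medians (-1.23) and quantile normalization (-1.22). STC1 was called under none (-0.71 to -1.44). Leaving out 1 animal gave -0.91 to -1.32 for GRP, -0.14 to -0.56 for ADM and -0.77 to -1.31 for STC1, with 0 calls at the threshold used. The causes of these changes were not tested.

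The 18KB array had 230 features called, 78 when adjusted over the named genes only (fewer were tested), 479 at an adjusted p under 0.05 with no fold minimum, and 177 to 252 without 1 animal. The 18KO array had 70, and 142 with equal column medians, 122 after quantile normalization, 174 with 1 factor per animal, 194 at the lenient threshold, and 33 to 75 without 1 animal (43 without pregnant 426, 33 without pregnant 448). The split of higher and lower calls moved with the scaling: 221 and 9 on the 18KB array as deposited, 82 and 172 with equal medians, 102 and 133 after quantile normalization, and 151 and 23 with 1 factor per animal. On the 18KO array it was 13 and 57 as deposited, 80 and 62, 52 and 70, and 13 and 161 in the same order. The median feature stood at -0.45, -0.32 and 0.13 under these 3 scalings for the 18KB array (0.38 as deposited), and at 0.31, 0.19 and -0.27 for the 18KO array (-0.02 as deposited).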
